A study of Mus musculus with 8 samples.

Results

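The potassium channel genes of the embryonic mouse cortex were taken as all genes in the deposited tables whose symbol is Kcn, followed by lower-case letters and a final number, with 50 or more unique molecular identifiers (UMIs, each marking 1 captured RNA molecule) over the cells of both libraries. This rule kept 49 of 92 genes with such a symbol, of 27998 listed genes. The lowest gene kept was Kcnt2 with 84 UMIs and the highest left out was Kcnh5 with 48 UMIs. By the letters of their symbols, the 49 genes were grouped into roles. These were 12 Kv voltage-gated pore subunits, 4 Kv modifier subunits, 8 KCNQ and EAG pore subunits and 6 calcium- or sodium-activated pore subunits. The others were 5 inward rectifier pore subunits, 5 two-pore-domain leak subunits and 9 auxiliary subunits.

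Single-cell RNA-seq was performed on cortex of CD1 mice at embryonic day 16.5, from 4 samples of wild type littermates and 4 samples of brains that received a ShhN plasmid by in utero electroporation at E13.5. ShhN is the signalling fragment of the secreted protein sonic hedgehog, and electroporation places the plasmid in progenitors that line the ventricle, so that only some cells of a brain carry it. The labels name neither the promoter of the plasmid nor a control plasmid for the wild type group. The 4 samples of a group are pooled in 1 matrix whose barcodes cannot be traced to samples, so each group was 1 library, no difference has a replicate check, and no p-value is given.

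Potassium channels let potassium leave the cell and so set the resting potential and end the action potential. Leak and inward rectifier channels hold the resting potential of progenitors and glia, whereas voltage-gated and calcium-activated channels shape the firing of neurons. Auxiliary subunits bind the pore subunits and change their gating or their delivery to the membrane.

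The wild type library held 63760199 UMIs and 6965 cells, and the ShhN library 69470062 UMIs and 8068 cells, after removal of called doublets. The libraries shared 79 cell barcodes. Shh had 0 UMIs in the wild type library and 5898 UMIs (103 CPM) in the ShhN library; CPM is the count of a gene scaled to all UMIs of the same cells. Cells fell into 23 clusters, of which 19 were named by marker genes, none of them a potassium channel gene. Between the wild type and ShhN libraries there were 173 and 248 radial glia-like cells, 1208 and 2208 intermediate progenitor-like cells, 640 and 938 migrating neuron-like cells, 1402 and 1523 upper layer-like cells, 1010 and 1023 deep layer-like cells, and 787 and 418 interneuron-like cells. Radial glia are the cortical stem cells and intermediate progenitors their neurogenic daughters. All 15 radial glia markers were raised in the radial glia-like cluster, whereas the 5 intermediate progenitor-like clusters had 5 to 11 of 12 markers raised and the 3 deep layer-like clusters 5 to 12 of 12. Within the intermediate progenitor-like class, wild type cells were mostly in clusters 4 and 11 and ShhN cells mostly in clusters 6 and 10. Cluster 4 (565 wild type and 468 ShhN cells) and cluster 6 (146 and 759 cells) were led in part by genes of newborn neurons. The class, and the progenitors it is part of below, thus also held newborn-neuron-like cells. The make-up of free RNA was read from barcodes with 1 to 50 UMIs. Its share was estimated from globin genes in upper and deep layer-like cells only. It was 14.1% of their UMIs in the wild type library and 9.41% in the ShhN library. Where free RNA was subtracted, the same share was used for every class.

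The promoters of 3 genes are shown first, 1 higher and 2 lower in neurons than in progenitors, as examples of each direction with a RefSeq window that held a motif match; Kcna4 was not among the 5 genes ranked highest in its direction. Promoter entries of RefSeq (build GRCm38.p6) existed for 34 of the 49 genes. Each sequence below is the 250 bases before the transcription start listed furthest upstream, written 5′ to 3′ on the strand of the gene. Kcnip3 had 3 listed starts, and Kcna4 and Kcnj10 had 1 each. The motif shares below also use only the furthest upstream start of each gene. Gene spans are those of GENCODE on GRCm38. Capitals mark matches, on either strand, to GGGCGG (the GC box), CAGATG or CAGCTG (both E-box letters). Kcna4, a Kv pore subunit that was higher in neurons, lies on the plus strand at chr2:107290639-107298502, and its window is chr2:107290339-107290588. Kcnj10, the inward rectifier of glia, lies on the plus strand at chr1:172341210-172374085, and its window is chr1:172340960-172341209. Kcnip3, a calcium-binding auxiliary subunit, lies on the minus strand at chr2:127456498-127522094, and its window is chr2:127522095-127522344. Both Kcnj10 and Kcnip3 were lower in neurons.
Kcna4: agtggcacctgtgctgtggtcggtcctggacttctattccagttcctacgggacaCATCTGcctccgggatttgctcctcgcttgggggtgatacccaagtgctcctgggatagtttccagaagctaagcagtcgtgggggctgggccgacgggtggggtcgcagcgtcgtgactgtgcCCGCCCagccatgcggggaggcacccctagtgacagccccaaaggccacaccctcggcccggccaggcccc
Kcnj10: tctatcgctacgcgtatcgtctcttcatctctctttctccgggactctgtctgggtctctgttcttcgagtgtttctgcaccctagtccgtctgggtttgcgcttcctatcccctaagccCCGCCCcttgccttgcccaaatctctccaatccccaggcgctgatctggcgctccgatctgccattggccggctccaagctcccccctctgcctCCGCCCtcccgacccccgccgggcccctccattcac
Kcnip3: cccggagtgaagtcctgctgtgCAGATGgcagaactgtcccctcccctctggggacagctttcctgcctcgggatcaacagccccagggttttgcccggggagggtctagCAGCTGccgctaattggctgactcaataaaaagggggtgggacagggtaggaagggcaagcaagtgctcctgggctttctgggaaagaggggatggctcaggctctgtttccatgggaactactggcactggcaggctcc

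The Kcna4 window held CAGATG and GGGCGG once each, the Kcnj10 window GGGCGG at 2 places, and the Kcnip3 window CAGATG and CAGCTG once each. Over the 34 potassium channel promoters, GGGCGG was found in 16 (47.1%), against 33.0% of 27025 promoters of all genes. The median GC content of these windows was 59.4% for the channel genes and 52.0% for all genes. CAGATG was in 14.7% of channel promoters and 14.5% of all promoters, and CAGCTG in 23.5% and 12.7%. No channel promoter held TTCAGCACC, the left part of the element bound by the repressor REST, or TGGGTGGTC, the letters bound by GLI factors; these were found in 0.292% and 0.207% of all promoters. These matches describe the letters of a short window and not binding.

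Summed over all 49 genes and compared over 5 classes from radial glia-like to deep layer-like cells, potassium channel RNA was lower in the progenitor than in the neuron classes. It made up 336 CPM in radial glia-like cells of the wild type library (95% counting interval 307 to 368) and 265 CPM in those of the ShhN library (242 to 290). It was 415 and 298 CPM in intermediate progenitor-like cells, 540 and 486 CPM in migrating neuron-like cells, 610 and 546 CPM in upper layer-like cells, and 632 and 583 CPM in deep layer-like cells. The order of these 5 classes was the same in both libraries. Outside them, unnamed cluster 18 had 198 and 200.02 CPM, from 41 and 43 UMIs. Intervals cover counting error only.

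Counted per cell, with cells sampled down to 4500 UMIs each and those below that depth omitted, a radial glia-like cell showed 1.23 ± 1.0 of the 49 genes in the wild type library (SD over 148 cells) and 1.04 ± 0.966 in the ShhN library (203 cells). An intermediate progenitor-like cell showed 1.64 and 1.24 genes, a migrating neuron-like cell 2.11 and 1.94, an upper layer-like cell 2.31 and 2.13, and a deep layer-like cell 2.31 and 2.40. Unthinned, the means were 2.01 and 1.68 in radial glia-like cells and 3.82 and 3.83 in deep layer-like cells, whose median depths were 6960 and 6313 UMIs and 7296.5 and 7636 UMIs. Thinning left out 25 and 45 radial glia-like cells and 243 and 120 deep layer-like cells.

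**Figure D1:**
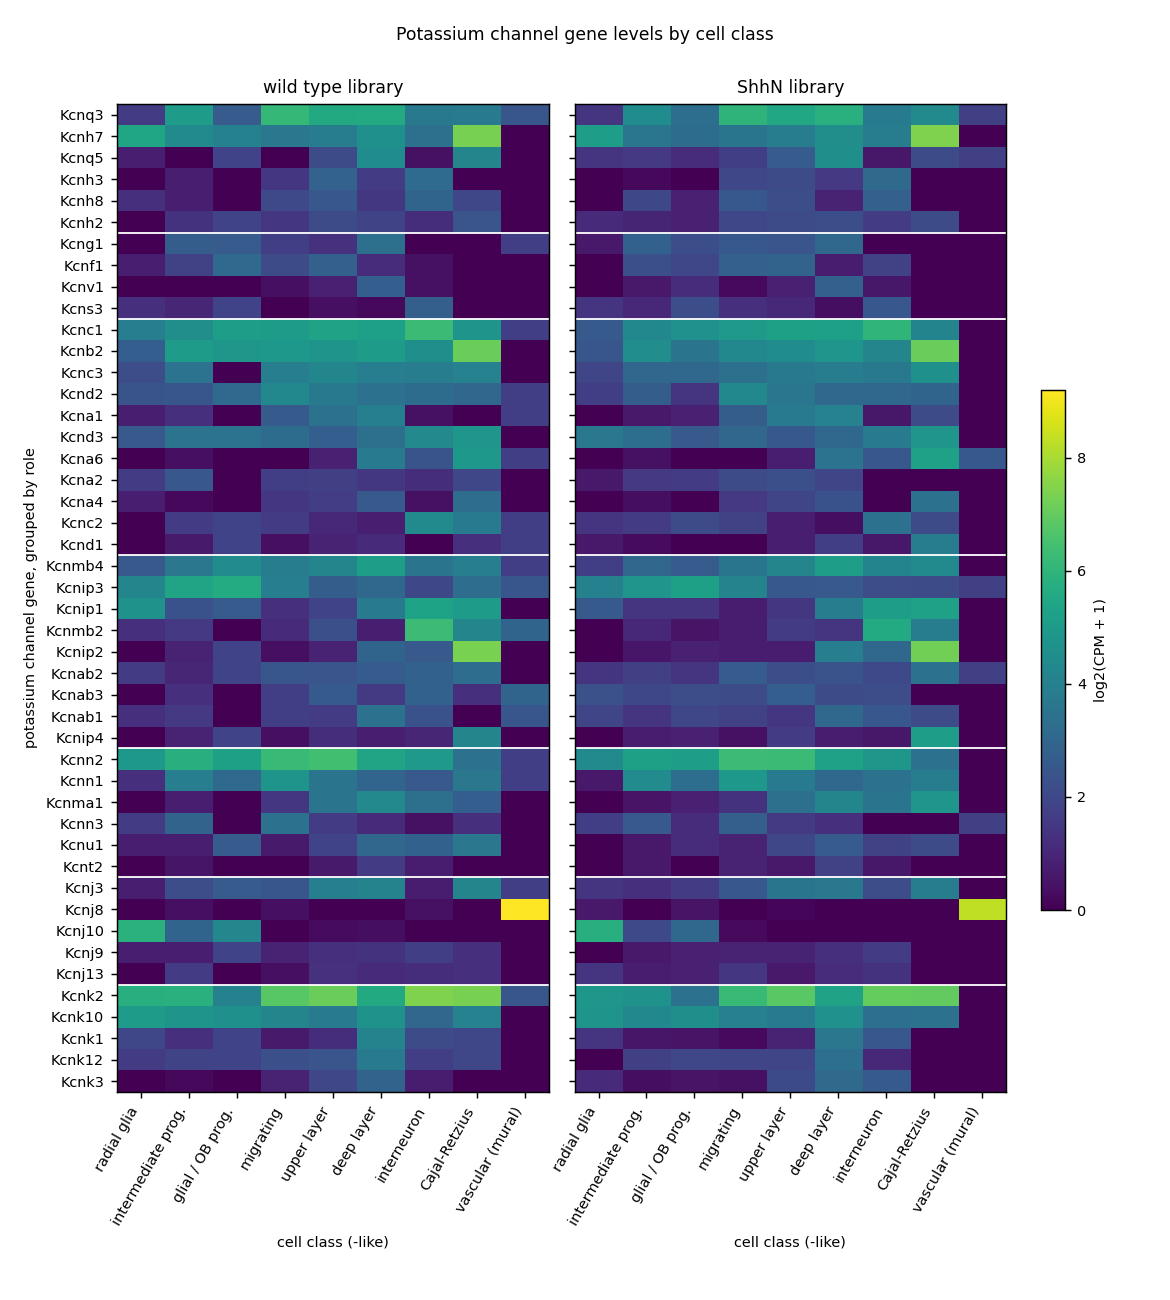
Level of 46 of the 49 potassium channel genes, as log2(CPM + 1), in 9 cell classes of the wild type library (left) and the ShhN library (right). Rows are genes, with white lines between roles, in the order KCNQ and EAG, Kv modifier, Kv, auxiliary, calcium- or sodium-activated, inward rectifier and two-pore-domain subunits. Kcnj8 stands out in the vascular cluster (578 and 321 CPM) and Kcnj10 in radial glia-like cells (57.8 and 53.1 CPM).

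Layered neurons (upper and deep layer-like cells together) were compared with progenitors (radial glia-like and intermediate progenitor-like cells together) within each library. The progenitor side included the newborn-neuron-like clusters 4 and 6. Of 47 genes with 20 or more UMIs, 17 were higher in neurons and 3 were lower. A gene was counted when its ratio was 2-fold or more and the nearer bound of its 95% interval was at least 0.5 on the log2 scale, in the same direction in both libraries. By that rule 9.64% of all 12083 genes were higher and 11.8% were lower, against 36.2% and 6.38% of the channel genes. The median log2 ratio was 1.22 among wild type and 1.21 among ShhN cells, against -0.13 and -0.10 over all genes. Among genes that took no part in the clustering, 7.86% were higher and 8.52% lower. The ratios of the 47 genes had a Spearman correlation of 0.83 between the libraries, across genes, which are not independent replicates.

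Among KCNQ and EAG pore subunits, 4 of 8 genes were higher in neurons. Kcnq5, a subunit of the M-current that restrains repetitive firing, had 187 UMIs in neurons, or 11 CPM, and 0.119 CPM in progenitors of the wild type library, where progenitors held 1 UMI, and 12.7 and 1.87 CPM in the ShhN library. The direction was the same in both libraries, but the log2 ratios of 6.53 and 2.76 differed. Kcnh3, an EAG family gene, had 4.63 against 0.593 CPM and 2.81 against 0.121 CPM. Kcnq3, another M-current subunit, was not called: its log2 ratio was 0.80 among wild type and 1.37 among ShhN cells.

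Of the 12 Kv pore subunits, 3, all of the Kcna family, were higher in neurons and none was lower. The Kcna genes encode Shaker-type channels, found mainly in axons and terminals. Kcna1 had 11.9 CPM in neurons and 1.30 CPM in progenitors of the wild type library, and 13.8 and 0.482 CPM in the ShhN library (log2 3.18 and 4.83). Kcna6 had 5.63 against 0.237 CPM and 4.62 against 0.302 CPM (log2 4.57 and 3.94). Kcna4, whose promoter is shown above, had 3.34 against 0.237 CPM and 3.33 against 0.241 CPM (log2 3.82 and 3.79). Progenitors of either library held at most 11 UMIs of any of the 3 genes. Kcna2, the other Kcna gene here, was not called and changed direction between the libraries. It had 2.11 CPM in neurons against 4.27 CPM in progenitors (wild type) and 3.33 against 1.75 CPM (ShhN), or log2 -1.02 and 0.93. Kcnb2, a delayed rectifier of the cell body, lay close to even, with log2 ratios of 0.06 and 0.26. Among the 4 modifier subunits, which are silent alone and join other Kv subunits, 3 had enough UMIs and 1 was higher: Kcnv1 had 2.87 CPM in neurons of the wild type library against 0 UMIs in progenitors (at least 8.08-fold higher, with 3 counts as the floor), and 2.96 against 0.482 CPM in the ShhN library.

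Calcium- or sodium-activated pore subunits went both ways. Kcnma1, the large-conductance BK channel, had 14.1 CPM in neurons and 0.593 CPM in progenitors of the wild type library and 12.9 and 0.362 CPM in the ShhN library (log2 4.58, interval 3.33 to 6.21, and 5.15, interval 4.01 to 6.61). Among the genes higher in neurons it ranked first by the interval bound nearest 0. Kcnu1, its relative, was placed in this group by its symbol and not by its gating. It had 4.52 against 0.712 CPM and 3.95 against 0.482 CPM. Kcnn3, a small-conductance SK channel, was lower in neurons, with 1.70 against 5.81 CPM and 1.71 against 4.70 CPM (log2 -1.77 and -1.46). The Kcnn3 call ended when the newborn-neuron-like clusters 4 and 6 and the shallow cluster 15 were left out, a choice made after seeing the data; 21 genes were then higher and 2 lower.

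Inward rectifiers held the strongest difference in the other direction. Kcnj10, which clears potassium in glia, had 0.235 CPM in neurons and 15.3 CPM in progenitors of the wild type library, or 4 and 129 UMIs. In the ShhN library it had 0 and 140 UMIs, which is at least 54.2-fold lower in neurons. Neurons of either library thus held almost none of it. Kcnj3, a G protein-gated inward rectifier, was higher in neurons, with 15.3 against 3.08 CPM and 11.3 against 1.39 CPM (log2 2.31 and 3.02).

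Of the 5 two-pore-domain leak subunits, 3 were higher in neurons. Kcnk3, an acid-sensitive leak channel, had 4.46 against 0.119 CPM in wild type and 5.20 against 0.362 CPM in ShhN cells. Kcnk1 had 7.63 against 1.66 CPM and 5.30 against 0.603 CPM, and Kcnk12 had 7.86 against 2.61 CPM and 5.51 against 2.11 CPM; the Kcnk12 call was lost in at least 1 library under 4 of 14 other settings. Kcnk2, a mechanically gated leak channel, had 101 against 56.0 CPM in wild type and 83.2 against 25.8 CPM in ShhN cells. Its log2 ratio of 0.85 missed the rule in the wild type library, and that of 1.69 met it in the ShhN library. Kcnk10, from the same subfamily, had log2 ratios of -0.59 and -0.13.

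Auxiliary subunits gave 3 higher and 1 lower gene of 9. Kcnmb4, the neuronal beta subunit of BK channels, had 24.1 against 10.3 CPM in the wild type library and 24.1 against 6.69 CPM in the ShhN library. Kcnip2, a partner of the A-type Kv channels, had 3.40 against 0.712 CPM and 6.18 against 0.422 CPM. Kcnab1, a Kv beta subunit, passed the rule with log2 ratios of 1.57 and 1.21 but missed it in at least 1 library under most other settings. Kcnip3 was lower in neurons, with 6.45 against 36.3 CPM and 4.83 against 25.9 CPM (log2 -2.49, interval -2.82 to -2.17, and -2.42, interval -2.76 to -2.09). Its product also acts in the nucleus as a calcium-dependent repressor.

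**Figure D2:**
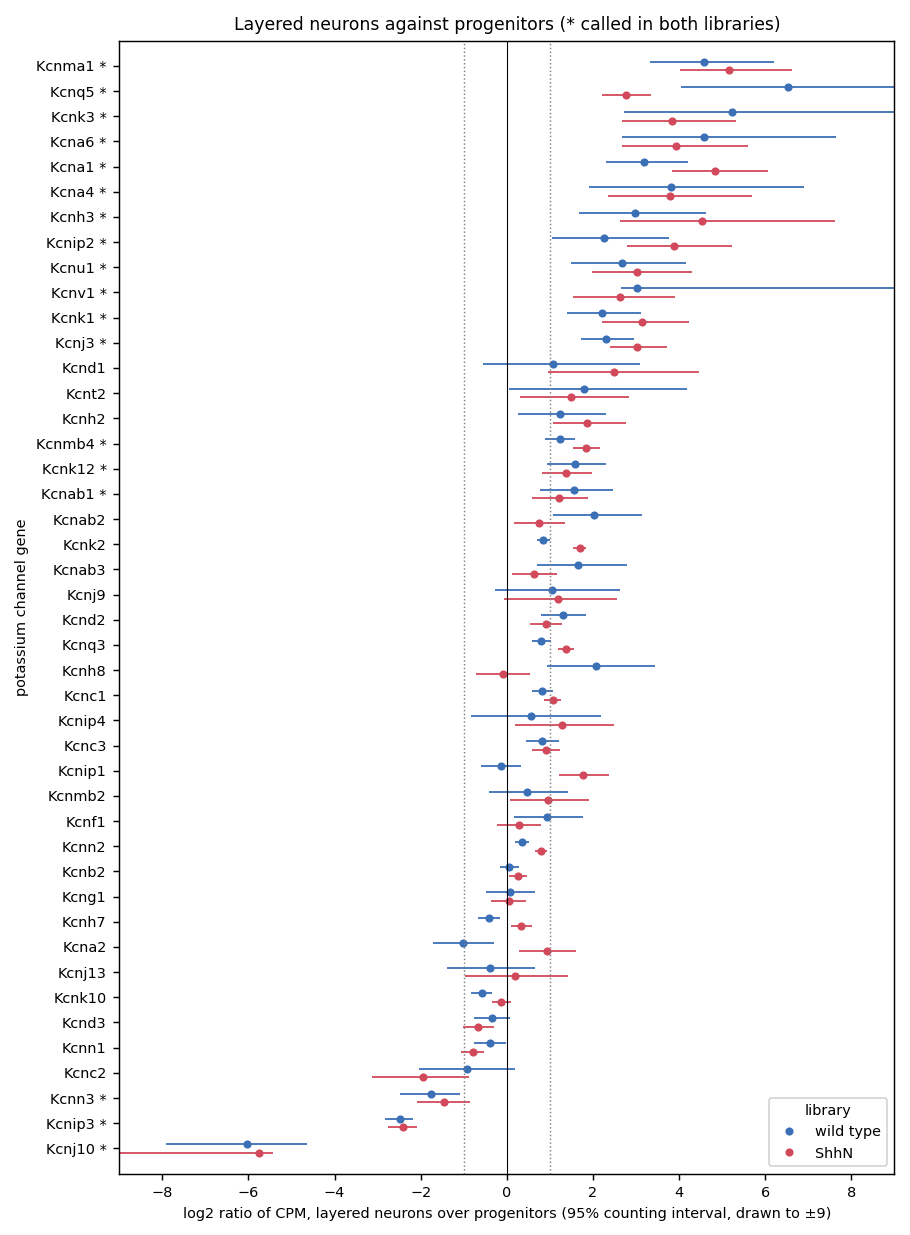
log2 ratio of CPM in layered neurons over progenitors for 44 of the 47 tested potassium channel genes, in the wild type library (blue) and the ShhN library (red). Bars are 95% counting intervals drawn to ±9, dotted lines mark a 2-fold difference, asterisks mark genes called in both libraries, and a side with 0 UMIs was set to 3 counts. The genes higher in neurons lie in the upper part and Kcnj10, Kcnip3 and Kcnn3 at the bottom.

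Between the progenitor classes, 22 genes had enough UMIs, and 3 were higher and 5 lower in radial glia-like than in intermediate progenitor-like cells. By the same rule 6.27% of all genes were higher and 4.81% lower (4.63% and 3.21% of genes not used for clustering). Kcnj10 had 57.8 CPM in radial glia-like and 6.83 CPM in intermediate progenitor-like cells (wild type) and 53.1 and 3.04 CPM in the ShhN library (8.47-fold and 17.5-fold). Kcnh7, an EAG family gene, had 42.8 against 20.2 CPM and 33.6 against 11.2 CPM. Both were thus higher in radial glia-like cells of both libraries, although the Kcnh7 difference in the wild type library turned to log2 -0.06 at a coarser clustering. Under TMM scaling, which moved these log2 ratios by -0.14 among wild type and -0.22 among ShhN cells, the Kcnh7 call ended.

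The 5 lower genes had from 0 to 8 UMIs in radial glia-like cells of a library. Kcnq3 had 3 UMIs there in each library, or 2.14 and 1.68 CPM, against 32.4 and 21.1 CPM in intermediate progenitor-like cells. Kcnn1, a small-conductance SK channel, had 2 UMIs and 1 UMI, against 14.2 and 20.5 CPM. Kcnb2 had 5.71 and 4.47 CPM against 32.0 and 21.6 CPM. Kcng1, a modifier subunit, had 0 UMIs and 1 UMI, against 5.55 and 6.22 CPM; its call was lost in at least 1 library under 7 of 13 other settings. Free RNA held 35.1 and 36.1 CPM of Kcnq3, so its radial glia-like levels were below those of free RNA. Intermediate progenitor-like clusters 4 and 6 were led in part by genes of newborn neurons, and the part of such cells in these 5 differences was not tested.

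**Figure D3:**
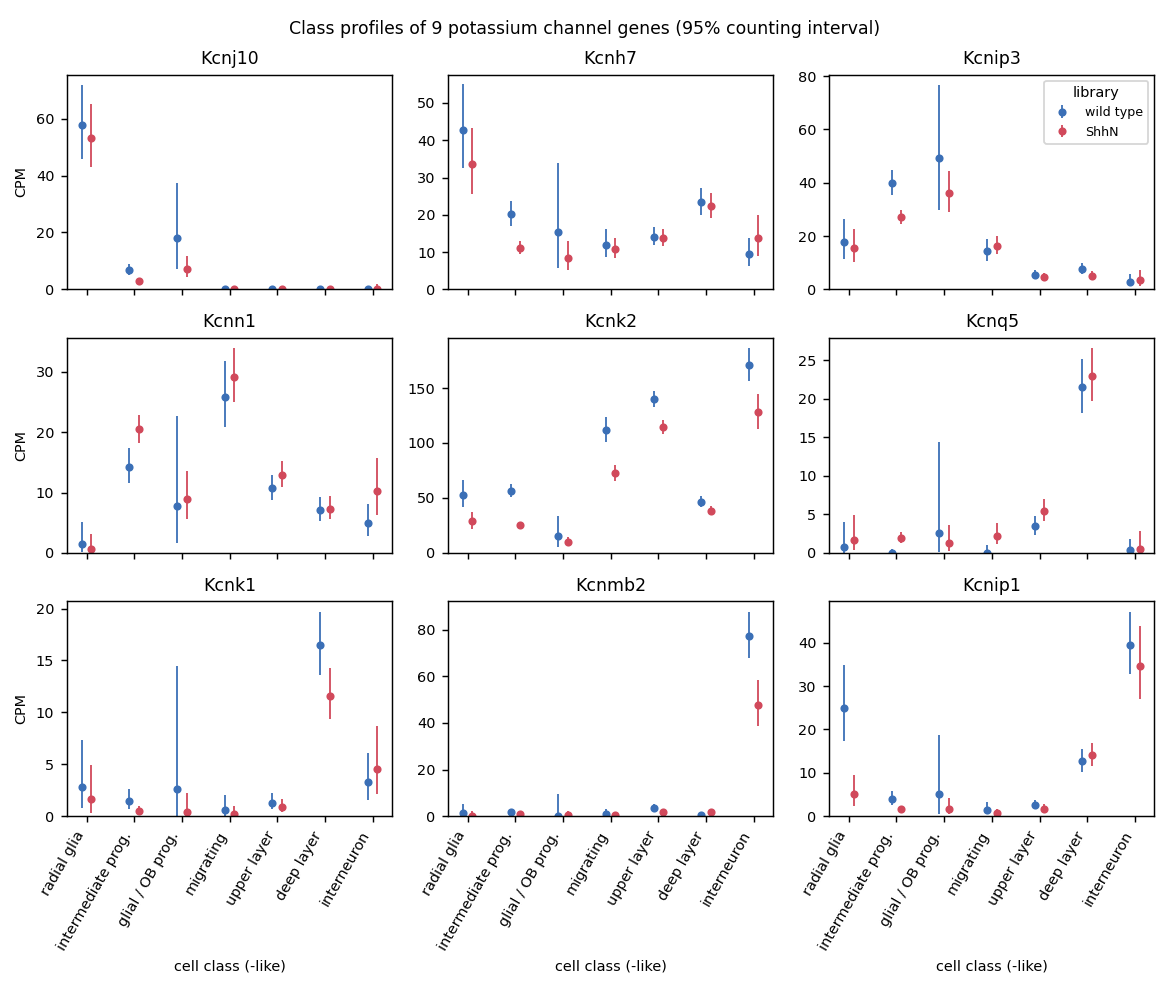
Level in CPM of 9 potassium channel genes in 7 cell classes of the wild type (blue) and ShhN (red) libraries, with 95% counting intervals. Kcnj10 and Kcnh7 peak in radial glia-like cells, Kcnn1 in migrating neuron-like cells (25.9 and 29.2 CPM), Kcnq5 and Kcnk1 in deep layer-like cells, and Kcnmb2 and Kcnip1 in interneuron-like cells.

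The highest level was read over 7 named classes, leaving out vascular, Cajal-Retzius-like and blood cells and the unnamed clusters. Of 49 genes, 36 had their highest level in the same class in both libraries. That class was deep layer-like for 19 genes, interneuron-like for 9, migrating neuron-like for 4, radial glia-like for 3 and the glial or olfactory bulb progenitor-like class for 1. For 8 genes the interval of the highest class lay apart from that of the next class in both libraries. They were Kcnk1, Kcnk12, Kcnq5 and Kcnv1 in deep layer-like cells, Kcnc1 and Kcnmb2 in interneuron-like cells, Kcnn1 in migrating neuron-like cells and Kcnj10 in radial glia-like cells. Kcnk1 was higher still in unnamed cluster 5, whose levels are given further below. Of 13033 genes with 50 or more UMIs, 54.8% had the same highest class in both libraries, against 73.5% of the channel genes, and that class was deep layer-like for 20.3% of them, against 52.8%. Intervals lay apart for 10.9% of all genes and 6.39% of genes not used for clustering, against 16.3% of the channel genes. For the other channel genes, the highest class differed between libraries, or its interval overlapped that of the next class in at least 1 library.

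Within layered neurons, 8 of 42 genes were higher and 3 lower in deep than in upper layer-like cells, against 4.92% and 2.23% of all genes (2.88% and 1.4% of genes not used for clustering). The ratios agreed closely between the libraries, with a Spearman correlation of 0.94 across genes. Kcna6 had 12.4 CPM in deep and 0.806 CPM in upper layer-like cells of the wild type library and 10.2 and 0.706 CPM in the ShhN library (15.4-fold and 14.5-fold). Kcnk1 had 16.4 against 1.31 CPM and 11.6 against 0.882 CPM (12.6-fold and 13.2-fold). Kcnq5 had 21.5 against 3.42 CPM and 23.0 against 5.47 CPM. All 3 were thus higher in deep layer-like cells of both libraries. Kcnip2 had 6.89 against 0.906 CPM and 14.2 against 0.618 CPM, and Kcnv1 had 5.76 against 0.806 CPM and 6.07 against 0.794 CPM. Kcnip1, another A-type channel partner, had 12.6 against 2.62 CPM and 14.0 against 1.76 CPM. Kcnab1 and Kcnk12 were higher by log2 2.20 and 1.56 in the wild type and by 2.05 and 1.73 in the ShhN library.

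Upper layer-like cells were higher for a leak, an SK and a modifier subunit. Kcnk2 had 140 CPM in upper and 46.7 CPM in deep layer-like cells of the wild type library and 114 and 38.4 CPM in the ShhN library (2.99-fold and 2.98-fold). The call was lost with cells of 4600 or more UMIs, where the log2 ratio of deep over upper layer-like cells went from -1.58 to -0.78 (wild type) and from -1.57 to -1.12 (ShhN), and with called doublets kept, where it was -0.81 and -0.91. Thinned to 4500 UMIs, 42.1% and 37.7% of upper layer-like cells had a Kcnk2 UMI (54.1% and 50.6% unthinned), against 16.04% and 15.3% of deep layer-like cells (25.8% and 24.3%). The vascular cluster gave 1 cell of 35 and 0 of 30; its median depths were 7107 and 7913 UMIs, against 6777 and 7110 UMIs in upper layer-like cells. Kcnf1 had 6.04 against 1.26 CPM and 6.53 against 0.632 CPM. Kcnn2 had 83.5 against 40.1 CPM and 75.8 against 37.4 CPM; its log2 ratios of -1.06 and -1.02 lay at the edge of the rule, and the call was lost in at least 1 library under most other settings.

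Interneurons reach the cortex from the ventral forebrain. Of 45 tested genes, 4 were higher and 8 lower in interneuron-like cells than in layered neurons, and 33 were called neither way. By the same rule 3.55% of all genes were higher and 3.72% lower (1.29% and 2.21% of genes not used for clustering). Kcnmb2, a beta subunit that inactivates BK channels, had 77.2 CPM in interneuron-like cells and 2.46 CPM in layered neurons of the wild type library and 47.9 and 1.87 CPM in the ShhN library (31.3-fold and 25.6-fold). Kcnc2, a fast Kv channel of fast-spiking interneurons, had 19.7 against 0.939 CPM and 10.2 against 0.520 CPM. Kcnip1 had 39.4 against 6.81 CPM and 34.6 against 6.81 CPM. Kcns3, a modifier subunit, had 5.92 against 0.235 CPM and 4.58 against 0.727 CPM. Kcnmb2 kept its call under all 13 other settings, whereas that of Kcns3 was lost in at least 1 library under 4 and that of Kcnc2 under 3. Kcnmb2 was concentrated in cluster 8, which was led by Lhx6 and Sst, with 92.8 and 84.6 CPM, against 25.5 and 8.45 CPM in cluster 14, led by Htr3a. Interneuron-like cells were the shallowest named neurons, with median depths of 3646 and 4250.5 UMIs.

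The 8 genes lower in interneuron-like cells were Kcna1, Kcna4, Kcng1, Kcnj3, Kcnk12, Kcnn2, Kcnq3 and Kcnq5. Kcna1 and Kcnq5 had 1 UMI each in interneuron-like cells of either library, against 202 and 187 UMIs in layered neurons of the wild type and 265 and 244 UMIs in those of the ShhN library. Kcng1 had 0 UMIs in interneuron-like cells of both libraries, which is at least 4.94-fold lower (wild type) and at least 3.77-fold lower (ShhN). Kcnq3 had 12.2 against 47.8 CPM and 13.2 against 48.9 CPM. Kcnn2 had 29.6 against 65.4 CPM and 28.5 against 60.01 CPM, and Kcnj3 had 0.657 against 15.3 CPM and 3.57 against 11.3 CPM. The call was lost in at least 1 library under 8 of 13 other settings for Kcnk12, 6 of 12 for Kcna4 and 4 of 13 for Kcnn2. With cells thinned to 4500 UMIs only 1 of the 8, Kcnq3, was called, and Kcnq3 kept its call under all 13.

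Kcnj8, the pore of the ATP-sensitive channel of pericytes, was found almost only in the vascular cluster. That cluster held 48 and 34 cells, was named by 8 of 8 mural markers and also had the endothelial gene Cldn5 among its leading genes. Kcnj8 had 578 CPM there in the wild type library (254 UMIs) and 321 CPM in the ShhN library (135 UMIs). In the other classes shown it had at most 0.559 CPM. Thinned, 54.3% and 46.7% of the cells of the vascular cluster had a Kcnj8 UMI (72.9% and 50% without thinning). Of deep layer-like cells, 0 of 767 and 0 of 903 had one. At this depth that allows shares of up to 0.391% and 0.332% (3 cells of the total). These are limits on cells with a UMI, not on cells expressing the gene.

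Other ion channel genes were read with the same rule in layered neurons against progenitors, where 9.64% of all 12083 genes were higher and 11.8% lower. Of 8 voltage-gated sodium channel genes with enough UMIs, 6 were higher in neurons and none lower, among them Scn2a1 (95.8 against 4.15 CPM in wild type and 94.5 against 6.03 CPM in ShhN cells). Of 19 voltage-gated calcium channel genes, 9 were higher and 1, Cacng5, was lower. Of 4 HCN genes, which carry the hyperpolarization-activated current, 2 were higher, among them Hcn2 (2.99 against 0.356 CPM and 2.03 against 0.543 CPM). The sodium potassium pump and chloride cotransporter list gave 1 higher and 3 lower genes of 11. Slc12a7, a potassium chloride cotransporter, was among the lower genes, with 0.880 against 5.57 CPM and 1.51 against 3.80 CPM. Of 8 genes whose products bind or anchor channels, 7 were higher, including Dpp6, a partner of A-type channels (log2 3.21 and 3.12).

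The ShhN and wild type libraries were then compared within each class of at least 100 cells in both. In 6 named classes and unnamed clusters 2 and 5, 170 pairs of a channel gene and a class had 50 or more UMIs. Of these, 2 pairs were higher and 4 lower in the ShhN library. Across these classes and clusters, from 0.0612% to 3.26% of all genes were higher and from 0.163% to 2.15% lower. Over all cells together, 0 of 49 genes were higher and 3 lower, where 2.85% of all genes were higher and 1.86% lower. The median log2 ratio of the channel genes was below 0 in each class, from -0.10 in upper layer-like cells to -0.49 in intermediate progenitor-like cells, while the median of all genes lay between -0.02 and -0.11. Group and library cannot be told apart here. No channel gene was called in radial glia-like cells (0 of 7), migrating neuron-like cells (0 of 16), interneuron-like cells (0 of 14) or cluster 2 (0 of 22). Of all genes, 0.548% were higher and 0.519% lower in radial glia-like cells, 0.309% and 0.665% in migrating neuron-like cells, 2.29% and 0.589% in interneuron-like cells, and 0.246% and 0.648% in cluster 2.

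In intermediate progenitor-like cells 3 of 23 channel genes were lower in the ShhN library, where 2.15% of all genes were lower, and none was higher, where 3.26% of all genes were. Kcnk2 had 56.6 CPM in wild type and 25.5 CPM in ShhN cells, from 398 and 377 UMIs (log2 -1.15, interval -1.36 to -0.94). Kcnj10 had 6.83 and 3.04 CPM (log2 -1.17) and Kcna2, a Kv pore subunit, had 4.69 and 1.89 CPM (log2 -1.31). All 3 values rest on a class that different clusters fill in the 2 libraries. Within clusters, the Kcnk2 log2 ratio was -0.63 in cluster 4, -1.68 in cluster 6, -0.98 in cluster 10 and -1.57 in cluster 11, and it was 1.98 in cluster 17, from 1 and 18 UMIs. The dividing-cell gene Top2a had 102 CPM in this class of the wild type and 383 CPM in that of the ShhN library. With clusters 4 and 11 alone, a choice made after seeing the data, none of the 3 was called. For Kcnj10 the ratio was -0.40 in cluster 4 and -0.39 in cluster 11.

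Kcnk2 was also lower in the ShhN library in the other 7 classes and clusters tested, by log2 values from -0.28 in deep layer-like to -0.89 in radial glia-like cells, none of which was called. In interneuron-like cells, which had 12.7 CPM of Shh, it had 171 and 128 CPM. Free RNA held 75.0 CPM of Kcnk2 in one library (wild type) and 41.1 CPM in the other. Its part in these differences was not tested beyond the subtraction of free RNA. That subtraction used the share estimated in layered neurons, and the call in intermediate progenitor-like cells was kept under it. Kcnb2 and Kcnc1 were lower in each of the 7 classes or clusters where they were tested, and Kcnn1 was higher in each of 6, with no call among them. These classes share their libraries.

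In layered neurons each class had 1 call. Kcng1 was higher in upper layer-like cells of the ShhN library, with 4.41 against 1.51 CPM, from 50 and 15 UMIs in 47 and 15 cells (log2 1.55). In its clusters 0 and 3 the log2 ratios were 1.94 and 1.22. Of all genes, 0.327% were higher and 0.337% lower in this class. Kcnip2 was higher in deep layer-like cells, with 14.2 against 6.89 CPM, from 112 and 49 UMIs in 89 and 39 cells (log2 1.04). Its log2 ratios were 1.09 in cluster 7 and 1.03 in cluster 9, and 0.25 in cluster 15 from 5 and 2 UMIs. Of all genes, 0.0612% were higher and 0.163% lower in this class. Shh itself had 281 CPM in upper and 147 CPM in deep layer-like cells of the ShhN library.

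In cluster 5, an unnamed neuron cluster led by Slit3, Grp and Nrp2, Kcnd2 was lower in the ShhN library, where 0.557% of all genes were lower and 0.223% higher. Kcnd2, the main pore of the somatodendritic A-type current, had 18.8 CPM in wild type and 5.70 CPM in ShhN cells, from 112 and 17 UMIs in 90 and 14 cells (log2 -1.72, interval -2.55 to -0.98). In migrating neuron-like cells it had 18.5 and 18.4 CPM, and in upper layer-like cells 12.1 and 11.2 CPM. The cluster held 674 wild type and 354 ShhN cells. The difference between these log2 ratios was not tested.

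Each of the 3 genes called over all cells had a smaller difference inside 1 cluster where its level was high. Kcnk1 had 9.17 and 3.86 CPM over all cells (log2 -1.25), and a log2 ratio of -0.46 in cluster 5. Kcnmb2 had 7.46 and 2.90 CPM (log2 -1.36), and a log2 ratio of -0.13 in cluster 8. In cluster 14, by the levels given above, the Kcnmb2 difference was larger than over all cells. The whole interneuron-like class had 77.2 and 47.9 CPM of Kcnmb2. Kcnj8 had 5.54 and 2.46 CPM (log2 -1.17), from 259 and 141 UMIs in 40 and 23 cells, and -0.85 in the vascular cluster. Of all wild type and ShhN cells, cluster 5 was 9.68% and 4.39%, interneuron-like cells 11.3% and 5.18%, and the vascular cluster 0.689% and 0.421%. The part of these shares in the 3 calls was not tested.

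**Figure D4:**
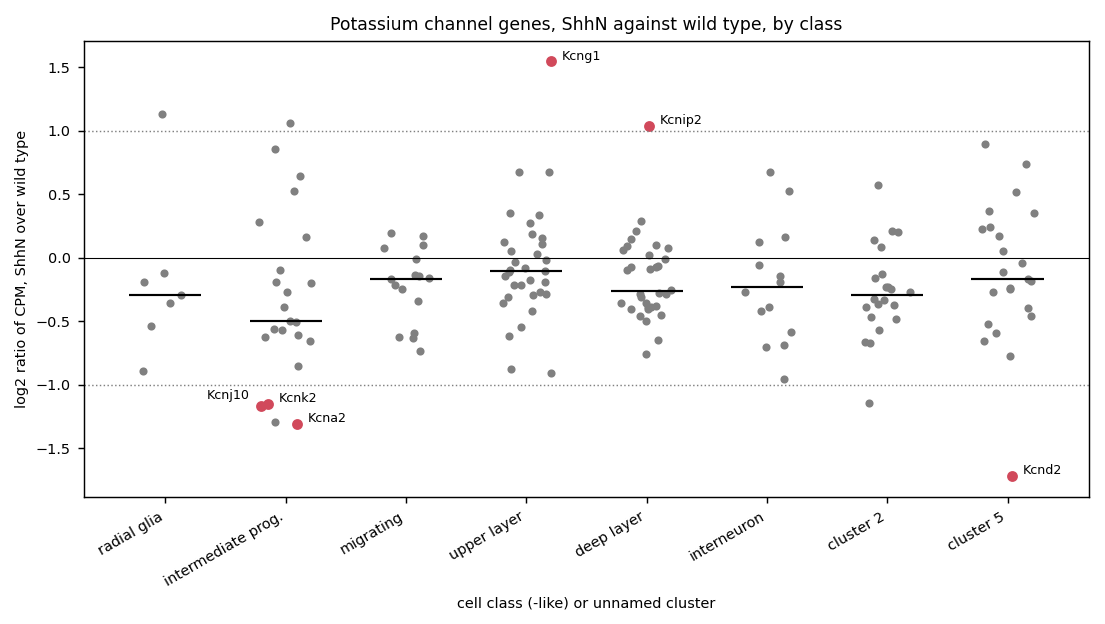
log2 ratio of CPM in the ShhN over the wild type library for each tested potassium channel gene (points) in 6 classes and 2 unnamed clusters. Red points are the 6 called pairs, black bars are medians and dotted lines mark a 2-fold difference. Most points lie within 2-fold, and the medians lie below 0.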

How the data were processed

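Per the labels, libraries were made with the Chromium droplet platform. The authors deposited raw UMI counts per gene and barcode, with no normalization, as 1 matrix per group; each lists 737280 barcodes, empty droplets included. The mm10 build, Seurat 3, StringTie and Cell Ranger are named, without roles, per the submitters' processing notes. A prefix, control or experimental, is all that ties a matrix to its group; control was read as wild type.

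Cells were barcodes with at least 2300 UMIs, 800 genes and at most 10% mitochondrial UMIs. Scrublet (scanpy 1.11.5, expected rate 6%) called 3.71% of 7233 wild type and 2.96% of 8314 ShhN barcodes doublets, which were removed. Joint clustering used 2000 variable genes, none of them a channel gene, 30 components, 15 neighbours and Leiden resolution 1. Names came from 16 marker lists: at least 3 markers and 40% of a list had to be detected in 10% of cells and 1.5-fold higher. The share of 40% was added after the clusters were seen. These rebuilt names can differ from those of the authors; for 33.9% of cells the 2 highest marker scores lay within 0.5 SD.

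Each class was summed within its library and given as CPM with exact Poisson intervals, and ratios with exact conditional binomial intervals, covering counting error only. PCR and cell-to-cell variation are not covered. Captured 3′ tags do not scale with gene length, and levels were compared between classes, not between genes. On simulated counts of 27998 genes, with counting noise only, the call rule was tried on 67 genes changed 2-fold and 67 changed 4-fold. It found 20.9% and 100% of them between layered neurons and progenitors, and 34.3% and 98.5% between libraries in intermediate progenitor-like cells. The changed genes were drawn from those with enough expected counts on both sides, so these shares do not cover genes with few UMIs on a side.

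Some genes are counted but not reported here by name. The genes and lists were chosen with earlier results of these data known. Any channel gene could be named; full values went to up to 8 called genes in each direction of a class contrast, and up to 6 between libraries, ranked by the interval bound nearest 0, and up to 3 per direction of another list. The sequences shown are those of the 3 highest ranked genes in each direction with a RefSeq entry, clear of annotated exons, that held a motif match. Alternatives covered cell, mitochondrial and doublet filters, clustering, marker score classes, scaling (TMM, edgeR 4.0.16), weighting, free RNA, thinning and UMI minimums.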

Additional observations from a re-analysis of the deposited data

How the results depend on the processing

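No paired analysis was possible because barcodes could not be traced to the samples, and leaving out each sample was not run for the same reason. Of 1365 values of single called genes under 15 other settings, 1198 kept their call, 166 kept only their direction and 1 turned: Kcnh7 in radial glia-like against intermediate progenitor-like cells (wild type) at resolution 0.5 (log2 -0.0629). Values whose sign turned only through a side at 0 UMIs were left out. The 17 genes higher in layered neurons were 10 at a minimum of 100 UMIs, all among the 17, and stayed within 1.5 times that count otherwise. The 4 genes higher in interneuron-like cells were 1 at 4600 or more UMIs per cell, 2 when thinned and 2 at the 100 UMI minimum; the 8 lower were 4 at 4600 UMIs, 5 at 5% mitochondrial UMIs, 5 with doublets kept and 1 when thinned. In deep against upper layer-like cells, the 8 higher were 4 at the 100 UMI minimum, and the 3 lower were 1 at 4600 UMIs and 1 with doublets kept. In radial glia-like against intermediate progenitor-like cells, the 3 higher were 1 at resolution 0.5 and 1 when thinned, and the 5 lower were 1 at 4600 UMIs, 3 with doublets kept, 3 at resolution 2 and 2 by marker score. The 3 genes lower in all ShhN cells were 1 when thinned. The 2 pairs of a gene and a named class higher in ShhN were 1 with doublets kept, by marker score, when thinned and at the 100 UMI minimum, 4 at resolution 0.5 and 6 with no minimum. The 3 pairs lower in ShhN (cluster 5 not counted) were 6 at 4600 UMIs, 5 at resolution 0.5, 1 under TMM scaling, 1 at the 100 UMI minimum, 5 with no minimum and 0 with intermediate progenitor clusters 4 and 11 alone; the cause was not tested. TMM scaling moved log2 ratios by up to 0.17 in layered neurons against progenitors. Kcnd2 in cluster 5 kept its call in the 6 settings that gave a value, Kcnip2 in 12 of 13, Kcng1 in 9 of 13, Kcnk2 in 9 of 14, Kcnj10 in 8 of 14 and Kcna2 in 2 of 14. Thinning left out 1681 wild type and 1054 ShhN cells. Genes at 1 or 2 UMIs in a class give ratios whose size is not resolved at this depth.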

Other observations

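Cajal-Retzius-like cells, the early reelin-secreting neurons of the marginal zone, were too few for a comparison between libraries (70 and 30 cells) and took no part in the class contrasts. They had the largest sum of potassium channel RNA of the named classes, 1056 CPM in wild type (interval 981 to 1136) and 1025 CPM in ShhN cells (913 to 1147), and 3.70 and 3.78 channel genes per thinned cell. Kcnip2 had 163 and 152 CPM there, against 6.89 and 14.2 CPM in deep layer-like cells. Kcnh7 had 159 and 172 CPM and Kcnb2 140 and 135 CPM, against 23.3 and 22.2 CPM and 32.5 and 27.3 CPM in deep layer-like cells. Kcna6 had 28.9 and 37.1 CPM and Kcnip4, another A-type channel partner, 17.3 and 33.7 CPM. Kcnn2, abundant in layered neurons, had 10.1 CPM in each library.

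Unnamed neuron clusters also had profiles of their own. Cluster 5 had 42.4 and 30.9 CPM of Kcnk1 and 141 and 117 CPM of Kcnq3. Cluster 16, led by Nefl, Fam19a1 and Chodl, held 210 and 54 cells and had 220 and 190 CPM of Kcnk2. In radial glia-like cells Kcnip1 had 25.0 CPM in the wild type (35 UMIs) and 5.03 CPM in the ShhN library (9 UMIs), a pair below the minimum of 50 UMIs and named after its values were seen.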
